A study of Mus musculus with 6 samples.

Results

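The enzymes that build, salvage and balance nucleotides, together with the folate, serine and methionine enzymes that supply their one-carbon units, form a set of 48 named genes in sorted mouse bone marrow myeloid cells. Each gene was read from 1 probe set annotated to it alone, the brightest on average across the 6 arrays, and 46 of the 48 genes had such a probe set. Impdh2 and Mat2a did not and were not analysed here. In all, 18193 genes had a probe set of their own, and 12732 of them passed a filter on low values, all 46 measured enzymes among them. Cells came from the femur and tibia marrow of Hdc-GFP mice on a C57BL/6 background, in which green fluorescent protein reports the promoter of Hdc, the histidine decarboxylase gene. Cells positive or high for the reporter and positive for the integrin CD11b were sorted into a group low in the antigen Gr1 (Gr1lo, 3 arrays) and a group high in it (Gr1hi, 3 arrays). Both groups thus carry the reporter and were selected for it; no age or treatment is given in the labels, and the labels leave unsaid whether each replicate was its own animal, so the p-values reflect the spread among these samples alone, which may be technical.

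De novo purine synthesis assembles the purine ring step by step on phosphoribosyl pyrophosphate (PRPP), while salvage enzymes return free bases and nucleosides to the pool. Pyrimidines are built as orotate and UMP, and CTP is made from UTP. Ribonucleotide reductase turns ribonucleotides into the deoxynucleotides of DNA, thymidylate synthase makes the thymine nucleotide, and folate carries the one-carbon units, largely drawn from serine, that purine and thymidylate synthesis consume. Demand for these products is high in dividing granulocyte precursors of the marrow and falls when neutrophils stop dividing and mature.

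The submitters summarised each probe set with GCRMA on the log2 scale, and each difference is Gr1hi minus Gr1lo on that scale, from a limma fit over all 12732 tested genes with Benjamini-Hochberg adjustment and a threshold of 0.05. The number of arrays limits the precision. Arrays correlated at 0.992 to 0.996 inside Gr1lo, at 0.994 to 0.995 inside Gr1hi and at 0.917 to 0.942 across the groups. All samples are labelled female, yet the Y-linked Eif2s3y read 9.02 to 10.66 on every array, and Xist read 10.95 and 10.14 on the replicate 3 arrays of Gr1lo and Gr1hi and at most 2.43 on the other 4. For Gr1lo replicate 3, the reporter is also spelled in its description so that GFP-negative is a possible reading. Without both replicate 3 arrays 37 enzymes were lower and 3 higher. Of 10 neutrophil lineage markers, the granule genes Camp, Ltf and Ngp and the calgranulins S100a8 and S100a9 had group means between 14.16 and 14.99. None of the 5 was called. The highest value on any array was 15.01, and whether differences so near it are compressed was not tested. Elane and Mpo, genes of the earliest granules, fell from 11.61 to 4.62 and from 13.91 to 9.93, while Itgam, which encodes CD11b, and the receptors Csf3r and Cxcr2 rose by 0.89, 2.68 and 2.99. The part of these shifts in the enzymes' differences was not tested.

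The set was lower in Gr1hi almost throughout. Of the 46 tested enzymes 42 passed the test (91.3%), against 56.4% of all tested genes. Among them 38 fell (82.6% of the 46), against 31.8% of all tested genes, and 4 rose (8.70%), against 24.6% of all tested genes. The other 4, Adss, Adssl1, Ctps2 and Tyms, did not pass the test. The median difference of the enzymes was -2.73, that of all tested genes 0.03. With a gene's probe sets averaged the median of the enzymes was -1.72, with 37 lower and 4 higher. A fall of at least 8-fold was found in 19 enzymes, against 4.27% of all tested genes. The groups did not overlap in 44 of the 46, against 65.5% of all tested genes. On all 6 arrays 44 enzymes lay above the array's 40th percentile, so few owed their place in the test to the Gr1lo arrays; Dctd was above it on the Gr1lo arrays alone. In these bulk samples fewer cells of a type and less RNA per cell cannot be told apart.

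**Figure D1:**
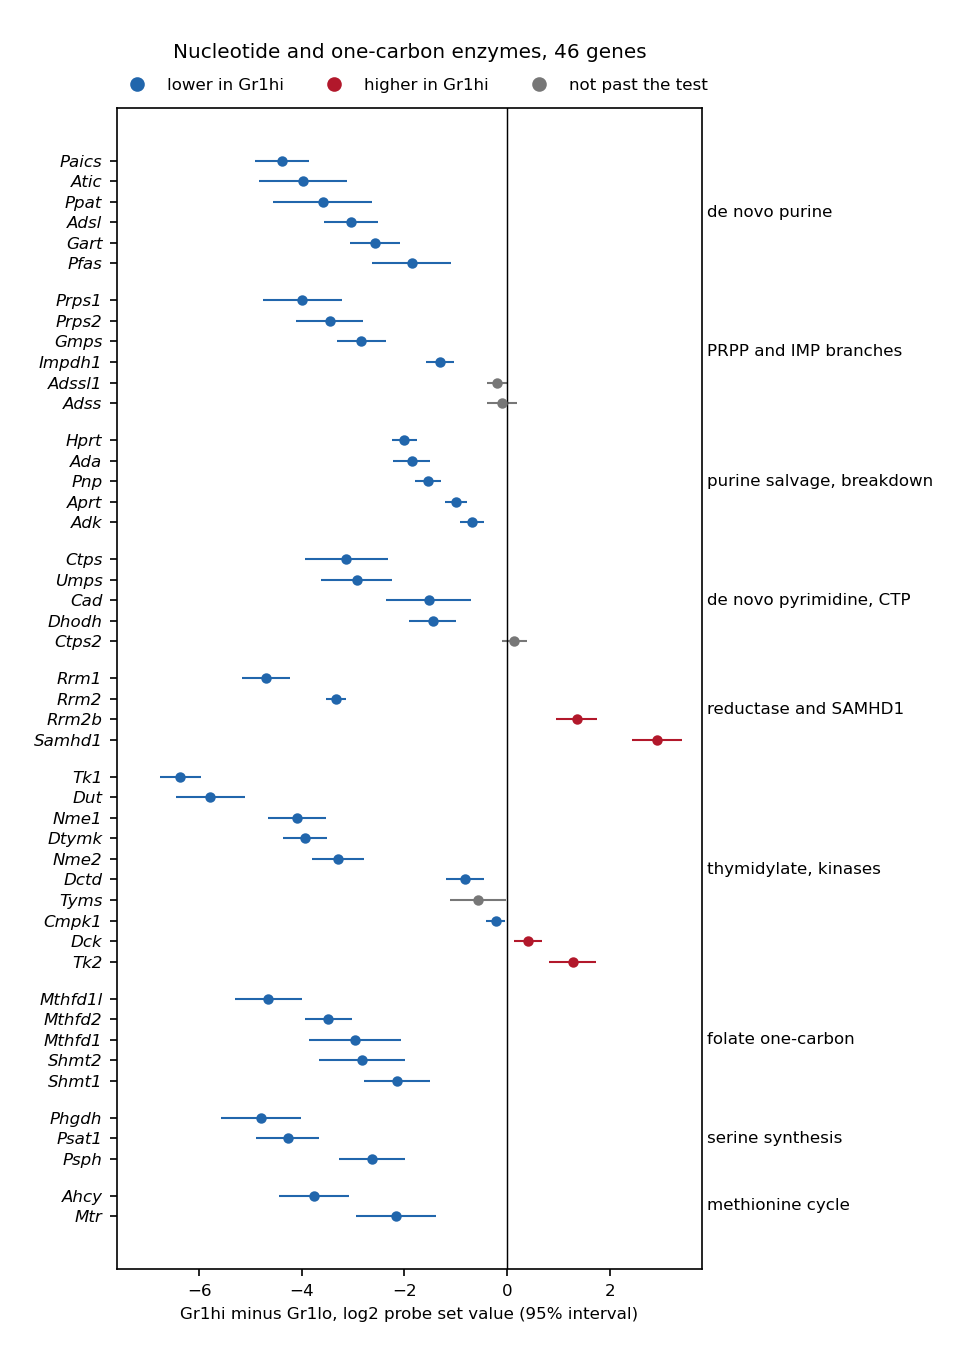
Difference between Gr1hi and Gr1lo (log2, horizontal axis) for the 46 measured enzymes, grouped by role; points are fitted differences and bars their 95% intervals. Most points lie left of 0, from Tk1 at -6.36, and Samhd1, Rrm2b, Tk2 and Dck, the 4 called higher, lie right of it, as does Ctps2 at 0.15, which did not pass the test.

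The scale matters for the small differences. Centring the arrays on the median of the tested genes moved the median of all genes from 0.03 to 0.70, and centring on the hybridization controls moved it to -0.23. The share of rises among all called genes was 43.6% as deposited, 78.3% with median centring and 27.7% with control centring. Median centring gave 35 falls and 8 rises among the enzymes, and control centring 40 falls and 3 rises. Samhd1, Rrm2b and Tk2 rose under each of the 3 scalings.

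The enzymes of deoxynucleotide supply held both the deepest falls and all 4 rises. Tk1, the cytosolic thymidine kinase of S phase, read 9.64, 9.60 and 9.64 in Gr1lo and 3.41, 3.06 and 3.33 in Gr1hi. The Gr1lo arrays were tight and all stood far above Gr1hi. The difference of -6.36 (SE 0.17, limma adjusted p = 1.10e-07), an 82.4-fold fall, was the third largest fall of all tested genes. Dut, whose enzyme removes dUTP and so keeps uracil out of DNA, read 11.37, 11.84 and 10.90 in Gr1lo and 6.01, 5.77 and 4.98 in Gr1hi. No array of one group came near the other, and the difference was -5.78 (SE 0.30, adjusted p = 4.55e-07). Its other probe set, far dimmer with Gr1lo at 3.61 on average and Gr1hi at 2.69, differed by -0.92. Dtymk, which phosphorylates thymidylate, fell by 3.94, from 10.92 ± 0.19 to 6.98 ± 0.36 (SD, n = 3 per group).

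Ribonucleotide reductase pairs the large subunit RRM1 with either of 2 small subunits, RRM2 of S phase or RRM2B, which is made outside S phase and after DNA damage. Rrm1 read 11.19, 11.37 and 11.29 in Gr1lo and 6.98, 6.68 and 6.10 in Gr1hi, a difference of -4.70 (SE 0.21, limma adjusted p = 2.25e-07). Rrm2 read 12.88, 12.91 and 12.84 in Gr1lo and 9.62, 9.42 and 9.58 in Gr1hi. Both subunit genes were thus well separated between the groups, with Rrm2 falling by 3.34 (SE 0.09). Its other probe sets differed by -5.07 and -4.49, so the size of its fall differed between probe sets by more than 1.5 on the log2 scale. Rrm2b went the other way and read 6.96, 6.73 and 7.33 in Gr1lo against 8.33, 8.35 and 8.42 in Gr1hi. It rose by 1.36 (SE 0.18, adjusted p = 1.34e-04), with no overlap between the groups, and each of its 3 other probe sets also rose.

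Samhd1, a phosphohydrolase that breaks deoxynucleoside triphosphates down, rose most of the set. It read 9.86, 9.16 and 10.08 in Gr1lo and 12.48, 12.55 and 12.84 in Gr1hi. Every Gr1hi array stood above every Gr1lo array, and the difference was 2.92 (SE 0.21, limma adjusted p = 3.14e-06), a 7.59-fold rise. Its 4 other probe sets rose by 2.80 to 4.47. Tk2, the thymidine kinase of mitochondria, read 8.66, 7.95 and 8.61 in Gr1lo and 9.83, 9.45 and 9.77 in Gr1hi, a rise of 1.28 (SE 0.20, adjusted p = 4.41e-04). Dck, which salvages deoxycytidine, deoxyadenosine and deoxyguanosine, read 11.75, 11.91 and 11.54 against 12.33, 11.96 and 12.16. The groups were separated by a narrow margin, and its rise of 0.42 (adjusted p = 0.0146) was the smallest of the 4. That call was lost without Gr1lo replicate 3 (adjusted p = 0.0511), without Gr1hi replicate 1 (0.0578), without both replicate 3 arrays (0.114) and after centring on the hybridization controls (0.39; 9.93e-06 to 1 over all alternatives). Its other probe sets rose by 1.69 and 0.63.

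**Figure D2:**
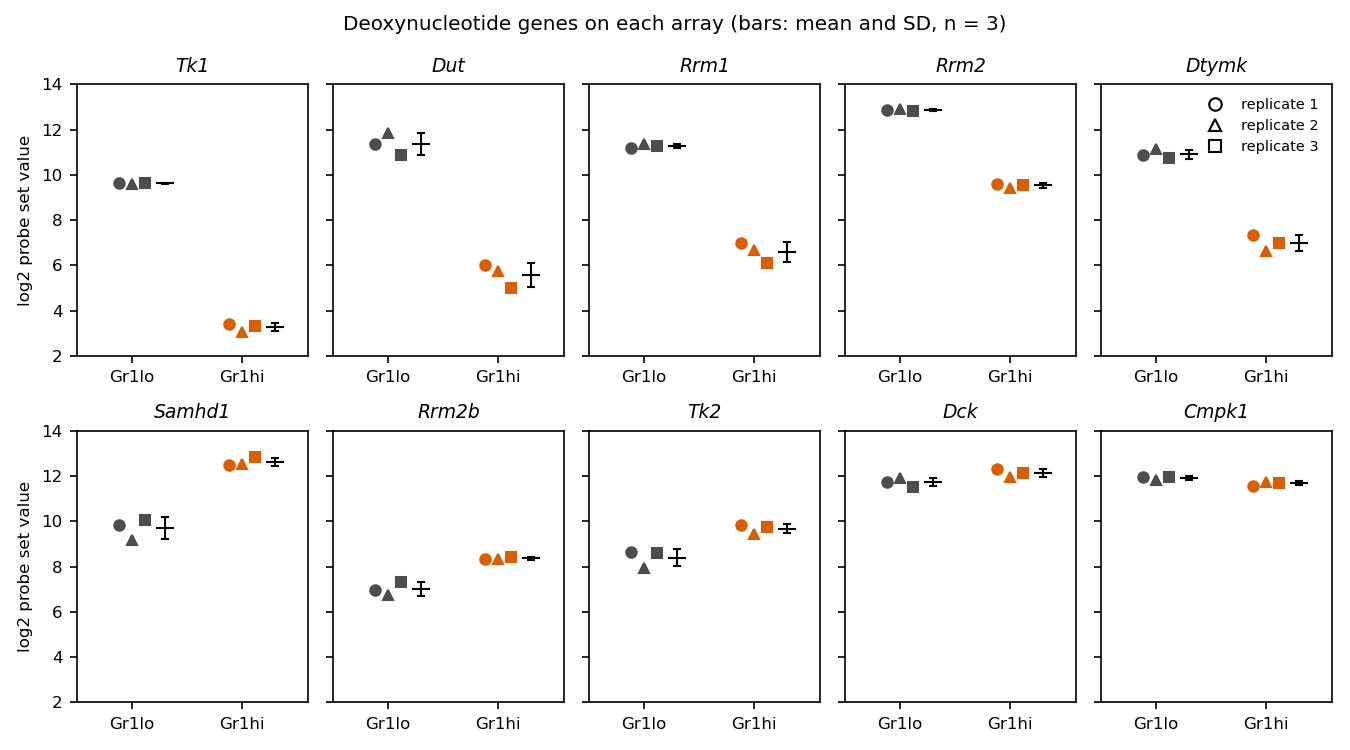
Log2 probe set values (vertical axis) of 10 deoxynucleotide genes on each Gr1lo and Gr1hi array; symbols mark the replicate number, and the bars beside them give mean and SD (n = 3). Tk1, Dut, Rrm1, Rrm2 and Dtymk are lower on all Gr1hi arrays, Samhd1, Rrm2b and Tk2 higher on all of them, and Dck and Cmpk1 differ little.

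Nme1 and Nme2, neighbouring genes of nucleoside diphosphate kinases, fell, with differences of -4.09 and -3.30, from 9.99 ± 0.50 to 5.90 ± 0.24 and from 11.37 ± 0.41 to 8.07 ± 0.32. They are close relatives, and how far each probe set also reads the other transcript was not tested. Dctd, a deaminase that makes the precursor of thymidylate, fell by 0.82 and reached 2.45 in Gr1hi, below 2.77, the highest value of 3 control probe sets of absent transcripts; its Gr1hi level cannot be told from an absent transcript, and the call was lost after median centring (difference -0.14). Cmpk1, a UMP and CMP kinase, read 11.95, 11.81 and 11.97 against 11.59, 11.76 and 11.72. Its difference of -0.22 (limma adjusted p = 0.0456) passed narrowly. After median centring Cmpk1 was instead called higher in Gr1hi, with a difference of 0.45 (adjusted p = 0.00244). Leaving out replicate 1 or 3 of either group lost the call (adjusted p = 0.144 and 0.128 for Gr1lo, 0.151 and 0.0736 for Gr1hi). The alternatives together ran from 0.00244, the call in the other direction, to 1, in the test against a 1.5-fold change.

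Tyms, which encodes thymidylate synthase, read 4.48, 4.91 and 4.14 in Gr1lo and 3.81, 4.31 and 3.72 in Gr1hi. The groups overlapped, and the difference of -0.56 (SE 0.24, limma adjusted p = 0.0729) did not pass the test, with a 95% interval of -1.11 to -0.02. It passed without Gr1lo replicate 3 (adjusted p = 0.03) or Gr1hi replicate 2 (0.0339) and after centring on the hybridization controls (0.00984; 3.18e-05 to 1 over all alternatives), while median centring turned its sign (0.11). This measure depended on the probe set. Another probe set of Tyms read 5.13, 5.65 and 4.92 against 2.76, 3.36 and 2.72, a difference of -2.29 (adjusted p = 3.18e-05 among all probe sets), and the remaining pair read at most 2.68 on every array. A probe set annotated to both Tyms and its pseudogene Tyms-ps, which by the rule names no gene, read 10.39, 10.54 and 10.13 in Gr1lo and 4.46, 4.53 and 4.43 in Gr1hi. It is given as a value only.

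Promoter sequences are shown for enzymes of DNA precursor and folate supply that fell and for 2 enzymes that rose. The choice was made after motif matches were seen: Tk1 and Dut are the deepest falls, and Rrm1, Dtymk and Mthfd1 are 3 of the 4 enzymes that fell and held an E2F core. The sequences came from the RefSeq promoter table of mouse build GRCm38.p6, which held 45 of the 48 genes; Pfas, Dhodh and Rrm2b had no entry. The 250 bases upstream of the start were searched on both strands, in the table's topmost entry of each gene, for TTCCCGC or TTGGCGC (cores of E2F sites), CACGTG (the E-box of MYC and its relatives), CCAAT (the box of NF-Y) and TGATGNAA (an ATF4 element). A TTGGCGC that follows an A also holds the reverse complement of CCAAT. In the lines below the last 150 bases before the start are given 5′ to 3′ on the gene's strand, with matches in capitals. Rrm1 lies at chr7:102441545-102441694 on the plus strand, Rrm2 at chr12:24708104-24708253 on the plus strand, and Dtymk at chr1:93801935-93802084 on the minus strand. Tk1 lies at chr11:117826015-117826164 on the minus strand and Dut at chr2:125247365-125247514 on the plus strand. Mthfd1, of the folate enzymes, lies at chr12:76255082-76255231 on the plus strand. Of genes that rose, Samhd1 lies at chr2:157135097-157135246 on the minus strand and Dck at chr5:88764863-88765012 on the plus strand.
Tk1: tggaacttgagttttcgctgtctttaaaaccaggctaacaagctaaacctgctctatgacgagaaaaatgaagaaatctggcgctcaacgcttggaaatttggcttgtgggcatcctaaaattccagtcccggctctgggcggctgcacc
Dut: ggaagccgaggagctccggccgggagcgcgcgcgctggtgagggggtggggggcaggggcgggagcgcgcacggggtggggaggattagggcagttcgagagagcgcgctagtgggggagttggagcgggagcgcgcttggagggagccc
Rrm1: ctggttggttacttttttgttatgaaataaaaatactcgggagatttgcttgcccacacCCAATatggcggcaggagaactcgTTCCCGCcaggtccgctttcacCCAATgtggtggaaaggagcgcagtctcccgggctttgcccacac
Rrm2: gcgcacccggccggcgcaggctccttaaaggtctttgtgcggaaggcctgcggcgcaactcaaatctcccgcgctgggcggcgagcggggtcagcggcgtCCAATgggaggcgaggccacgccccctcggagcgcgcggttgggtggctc
Dtymk: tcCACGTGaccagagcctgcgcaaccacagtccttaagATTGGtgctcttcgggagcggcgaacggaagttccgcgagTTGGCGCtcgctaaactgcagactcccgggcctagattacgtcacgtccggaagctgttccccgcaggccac
Mthfd1: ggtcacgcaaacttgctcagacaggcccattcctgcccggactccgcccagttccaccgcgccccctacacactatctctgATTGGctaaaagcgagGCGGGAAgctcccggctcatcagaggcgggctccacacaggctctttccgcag
Samhd1: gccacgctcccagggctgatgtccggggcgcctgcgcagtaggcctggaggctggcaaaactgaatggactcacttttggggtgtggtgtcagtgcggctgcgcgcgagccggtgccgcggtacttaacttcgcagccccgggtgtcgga
Dck: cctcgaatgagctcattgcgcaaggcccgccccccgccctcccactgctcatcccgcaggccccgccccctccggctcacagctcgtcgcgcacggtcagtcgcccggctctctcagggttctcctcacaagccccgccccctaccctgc
Tk1 and Dut held none of the 4 motifs in their 250 bases. Rrm1 held an E2F core between a pair of CCAAT boxes, Dtymk an E-box, a CCAAT box and an E2F core, and Mthfd1 a CCAAT box and an E2F core. Over the 250 bases, CCAAT was found in 19 of the 36 promoters of enzymes that fell (52.8%), against 35.9% of the promoters of the 10277 tested genes with an entry and 39.5% of those called lower. The E2F cores were found in 4 of the 36 (11.1%) against 9.87% and 14.0%, the E-box in 4 (11.1%) against 8.27% and 9.24%, and the ATF4 element in 1 (2.78%) against 2.14% and 1.84%. Over all 27025 genes of the table the shares were 34.5% for CCAAT, 5.71% for the E2F cores, 6.05% for the E-box and 3.53% for the ATF4 element. None of the 3 enzymes that rose and had an entry held any of the 4 motifs. Among tested genes called higher the shares were 34.0% for CCAAT and 8.0% for the E2F cores. They were 7.69% for the E-box and 2.09% for the ATF4 element. At such shares 3 promoters are too few to show a contrast with the enzymes that fell. A match describes letters only, and these windows do not cover sites elsewhere.

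All 6 enzymes of the de novo purine pathway fell, with differences from -4.38 to -1.86. Ppat, the amidotransferase of the committed step, read 7.20, 8.65 and 6.70 in Gr1lo against 3.93 ± 0.17 in Gr1hi (SD, n = 3). The Gr1lo arrays were spread out, with replicate 2 highest, but all stood above Gr1hi, and the difference was -3.59 (SE 0.43, limma adjusted p = 7.18e-05). Paics, which carries the carboxylase and the next ligase step, read 10.72, 10.89 and 10.47 against 6.67, 5.77 and 6.49, the largest fall of the pathway at -4.38 (SE 0.23, adjusted p = 5.31e-07). Gart, which carries 3 activities of the pathway, fell by 2.58, and Pfas, the next amidotransferase, fell by 1.86. Adsl, a lyase that acts here and again on the way to AMP, fell by 3.04, and Atic, which closes the ring to give IMP, fell by 3.98, from 7.83 ± 0.74 to 3.85 ± 0.50.

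PRPP is made by the synthetases Prps1 and Prps2, which fell, with differences of -3.99 and -3.46. Prps1 read 7.25, 8.40 and 7.34 in Gr1lo and 3.61, 4.14 and 3.28 in Gr1hi, and Prps2 read 7.40, 7.94 and 7.26 against 4.59, 3.61 and 4.03. In neither gene did the groups overlap. From IMP the pathway branches to GMP and AMP. On the GMP branch Gmps, GMP synthetase, fell by 2.84, from 9.75 ± 0.40 to 6.91 ± 0.22, and Impdh1, an isoform of IMP dehydrogenase, fell by 1.30 (4.06, 4.08 and 4.05 against 2.64, 2.88 and 2.78), and its Gr1hi mean was no higher than the controls of absent transcripts. On the AMP branch the 2 adenylosuccinate synthetases did not pass the test. Adss read 10.48, 10.57 and 10.67 against 10.28, 10.42 and 10.74, a difference of -0.09 with a 95% interval of -0.38 to 0.20. Adssl1 read 11.07, 11.01 and 11.02 against 10.98, 10.79 and 10.77, a difference of -0.19 with an interval of -0.40 to 0.02. After median centring both were higher in Gr1hi, by 0.58 and 0.49 (adjusted p = 0.00214 and 0.00143), while Adssl1 fell by 0.45 after centring on the hybridization controls (adjusted p = 0.013; 0.00143 to 1 over all alternatives).

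The salvage and breakdown enzymes of purines all fell, with a median difference of -1.53 over 5 genes; that of the 6 de novo enzymes was -3.32, and this contrast was not tested. Hprt, which salvages hypoxanthine and guanine, fell by 2.00, from 11.49 ± 0.11 to 9.49 ± 0.11. Ada, adenosine deaminase, and Pnp, purine nucleoside phosphorylase, fell, with differences of -1.85 and -1.53. Aprt, the salvage enzyme of adenine, fell by 0.99, from 11.91 ± 0.09 to 10.92 ± 0.14. Adk, adenosine kinase, read 10.43, 10.43 and 10.45 in Gr1lo and 9.81, 9.85 and 9.61 in Gr1hi, a difference of -0.68 (limma adjusted p = 3.52e-04). The groups were clearly apart, yet after median centring the difference was -0.0039 (adjusted p = 0.978; 3.46e-05 to 0.986 over all alternatives), and none of its 3 other tested probe sets passed the test.

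Among pyrimidine enzymes, 4 of 5 fell. Umps, which makes UMP from orotate, fell by 2.93, from 8.15 ± 0.55 to 5.22 ± 0.41. Cad, which carries the opening steps, read 4.33, 5.79 and 4.36 in Gr1lo and 3.60, 3.25 and 3.05 in Gr1hi, a difference of -1.53 (SE 0.37, limma adjusted p = 0.00551). Within Gr1lo, replicate 2 was the high array. Dhodh, the dihydroorotate dehydrogenase of the mitochondrial inner membrane, fell by 1.45, to 2.96 ± 0.35. Of the 2 CTP synthetases, Ctps read 6.97, 7.76 and 6.13 against 4.04, 3.73 and 3.71, a difference of -3.13 (SE 0.36, adjusted p = 5.73e-05). Ctps2 read 9.90, 9.90 and 9.72 against 9.91, 10.06 and 9.99, a difference of 0.15 with an interval of -0.09 to 0.38 that did not pass the test. Its sign rests on the scaling, with 0.82 (adjusted p = 1.10e-04) and -0.11 (adjusted p = 0.599) under median and control centring (1.10e-04 to 1 over all alternatives).

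All 5 folate enzymes, all 3 serine synthesis enzymes and both measured enzymes of the methionine cycle fell. Mthfd1l, which releases formate in mitochondria, read 7.47, 8.44 and 7.75 in Gr1lo and 3.53, 2.81 and 3.37 in Gr1hi, a difference of -4.65 (SE 0.29, limma adjusted p = 1.43e-06). Mthfd2, the mitochondrial dehydrogenase and cyclohydrolase, read 9.71, 9.93 and 9.67 against 6.43, 6.57 and 5.86, a difference of -3.48. The groups were far apart in both. Mthfd1, the cytosolic trifunctional enzyme, fell by 2.96, from 6.25 ± 0.94 to 3.29 ± 0.02. Shmt2 and Shmt1, the mitochondrial and the cytosolic hydroxymethyltransferase that take a one-carbon unit from serine, fell, with differences of -2.83 and -2.14. Shmt2 read 5.70, 7.10 and 5.56 against 3.04, 3.47 and 3.36, and Shmt1 read 5.72, 6.47 and 5.26 against 3.57, 3.66 and 3.78.

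Serine synthesis from glycolytic phosphoglycerate runs through Phgdh, Psat1 and Psph. Phgdh, the dehydrogenase that opens the pathway, read 8.43, 9.88 and 8.62 in Gr1lo and 4.13, 4.09 and 4.32 in Gr1hi, a difference of -4.80 (SE 0.34, limma adjusted p = 2.97e-06) or 27.8-fold. Psat1, the aminotransferase, read 9.66, 10.18 and 9.50 against 5.83, 4.94 and 5.76, a difference of -4.27. Psph, the phosphatase, read 7.40, 8.23 and 7.11 against 4.78, 5.09 and 4.99, a difference of -2.63. In each gene the groups were separate. Ahcy, which hydrolyses S-adenosylhomocysteine, fell by 3.77, from 7.58 ± 0.65 to 3.81 ± 0.11, and Mtr, methionine synthase, fell by 2.17, from 6.05 ± 0.77 to 3.88 ± 0.18. The promoters of the serine enzymes are given because each of the 3 held CCAAT more than once in its 250 bases. All 3 lie on the minus strand of their chromosomes, Phgdh at chr3:98339970-98340119, Psat1 at chr19:15925060-15925209 and Psph at chr5:129787254-129787403, and the capitals again mark matches within the last 150 bases.
Phgdh: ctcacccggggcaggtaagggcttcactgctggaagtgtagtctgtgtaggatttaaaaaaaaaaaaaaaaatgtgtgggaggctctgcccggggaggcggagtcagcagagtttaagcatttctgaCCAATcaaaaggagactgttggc
Psat1: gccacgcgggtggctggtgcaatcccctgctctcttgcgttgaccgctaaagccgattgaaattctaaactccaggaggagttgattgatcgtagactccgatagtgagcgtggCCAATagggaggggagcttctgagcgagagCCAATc
Psph: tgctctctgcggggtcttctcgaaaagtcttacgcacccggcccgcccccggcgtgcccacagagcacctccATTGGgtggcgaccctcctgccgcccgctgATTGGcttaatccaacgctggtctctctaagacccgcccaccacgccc
Of the 2 boxes of Phgdh only the nearer lies in the stretch shown. No E2F core, E-box or ATF4 element as spelled above was found in the 250 bases of these 3 genes.

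Pairs of genes of the same enzyme family were compared within arrays, so that the scaling of an array cancels. Of 9 pairs 8 could be measured, since Impdh2 had no probe set. For 3 arrays against 3 an exact two-sided permutation test cannot give a p below 0.1, so no pair could pass 0.05, and the smallest value adjusted over 8 pairs was 0.133. The log2 ratio of Tk1 to Tk2 changed by -7.64 (95% interval -8.24 to -7.05), that of Rrm2 to Rrm2b by -4.70 (-5.26 to -4.13) and that of Ctps to Ctps2 by -3.27 (-4.50 to -2.04). In these 3 pairs no array of one group overlapped the other in the ratio (exact permutation p = 0.1 each). Mthfd1l fell by 1.69 more than Mthfd1 (0.66 to 2.71), again without overlap. Their Gr1lo means were 7.89 and 6.25, and their Gr1hi means 3.24 and 3.29. The latter lie not far above 2.77, the highest absent-transcript control. The size of both falls, and so of their contrast, may be limited by low signal. Nme1 and Nme2 differed by -0.79 and Shmt1 and Shmt2 by 0.68 in their change, without overlap, but both signs turned when a gene's probe sets were averaged (0.53 and -0.63). Prps1 and Prps2 overlapped in their ratio (change -0.53, interval -1.94 to 0.87, exact p = 0.4), as did Adss and Adssl1 (0.10, -0.48 to 0.67, exact p = 0.8).

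**Figure D3:**
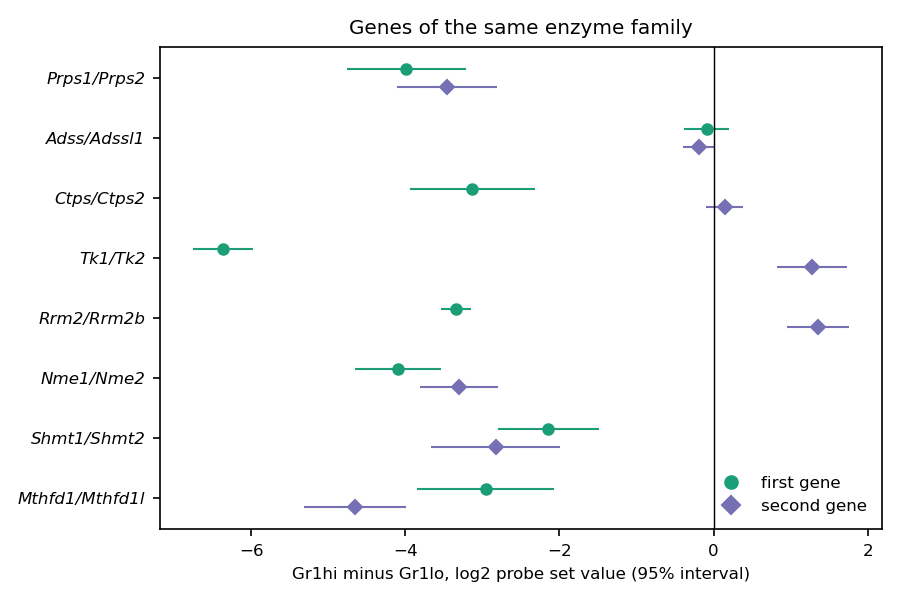
Difference between Gr1hi and Gr1lo (log2, horizontal axis) of both genes in 8 pairs of one enzyme family; circles are the gene named on the left of each pair, diamonds the other, bars 95% intervals. Tk1 and Tk2, Rrm2 and Rrm2b, and Ctps and Ctps2 lie far apart, with Tk2 at 1.28 and Rrm2b at 1.36 right of 0.

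The enzymes also varied among the Gr1lo arrays. Gr1lo replicate 2 was the highest Gr1lo array in 37 of the 46 enzymes (80.4%), against 36.8% of all tested genes, and exceeded the mean of replicates 1 and 3 by a median of 0.58, against 0.00 for all tested genes. The excess had a median of 1.06 in the methionine cycle, 0.99 in the folate enzymes, 0.97 in serine synthesis, 0.90 in de novo pyrimidine synthesis and 0.87 in de novo purine synthesis. In the PRPP and IMP branches the median was 0.32, and in purine salvage and breakdown 0.16. The excess reached 1.70 in Ppat, 1.62 in Mthfd1, 1.47 in Shmt2 and 1.45 in Cad. Within the same groups as these genes it was only 0.30 in Paics, 0.25 in Dhodh, 0.24 in Mthfd2 and 0.09 in Ctps2. Enzymes of DNA precursors ranged widely. The thymidylate and deoxynucleotide supply group had a median of 0.45, with replicate 2 highest in 7 of 10, from Nme1 at 0.87 and Dut at 0.71 to Tk1 at -0.04, and the reductase subunits Rrm1 and Rrm2 stood at 0.13 and 0.05. Of the 4 enzymes that rose in Gr1hi, Samhd1, Tk2 and Rrm2b were lowest of the Gr1lo arrays in replicate 2, at -0.81, -0.68 and -0.41, and Dck was highest in it, at 0.26.

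Other genes moved with this array. Elane, a protease gene of early granules, read 11.43, 12.02 and 11.38 in Gr1lo replicates 1, 2 and 3, and Cxcr2, a receptor of mature neutrophils, read 8.24, 7.36 and 8.07. Mki67, a marker of cycling cells, did not follow and read 13.02, 12.84 and 12.83. Replicate 2 was nevertheless the highest Gr1lo array in 13 of the 20 tested genes of a cell cycle list (65.0%), against 36.8% of all tested genes. These 20 genes exceeded the other arrays in replicate 2 by a median of 0.18. The part of these values in the enzymes' spread was not tested. Without Gr1lo replicate 2 the counts were 38 lower and 4 higher, and the median difference of the enzymes was -2.36. Among the Gr1hi arrays no replicate was highest in more than 19 of the 46. That was replicate 1 (41.3%, against 30.3% of all tested genes), with a median excess of 0.02 over the other Gr1hi arrays. In the cell cycle list Gr1hi replicate 1 was the highest Gr1hi array in 15 of 20 genes (75.0%), with a median excess of 0.33.

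**Figure D4:**
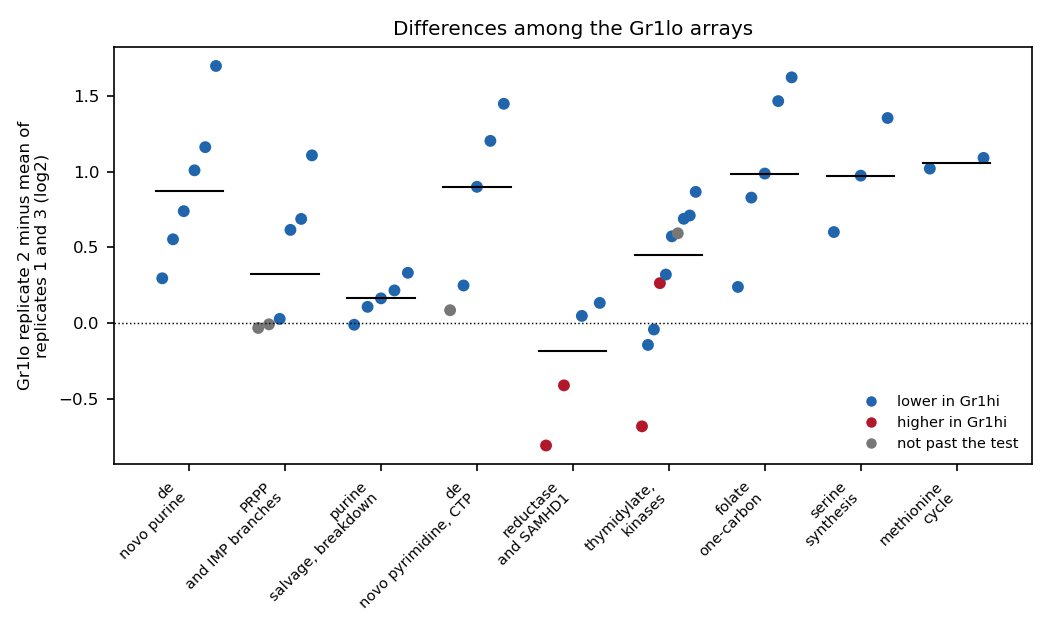
Excess of Gr1lo replicate 2 over the mean of Gr1lo replicates 1 and 3 (log2, vertical axis) for each enzyme, by role; lines are medians of a role and colours the call in Gr1hi against Gr1lo. Medians of the one-carbon, serine, methionine and de novo groups lie near 1, with single genes as low as Mthfd2 at 0.24 and Ctps2 at 0.09. Rrm1, Rrm2 and Tk1 sit near 0, and Samhd1, Tk2 and Rrm2b below 0.

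Repeat measures came from other probe sets of the same genes. Of the 42 called enzymes 24 had at least 1 other tested probe set, and in 23 of these at least 1 was called the same way. Adk was the exception. Of 47 such probe sets 39 were called the same way, 8 did not pass the test and 0 were called the other way. These probe sets were read on the same arrays and are no further replicates.

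Other genes of the same pathways were listed beside the set. Of 84 such genes, 71 had a probe set and 55 were tested. Of these 25 fell (45.5%), against 31.8% of all tested genes, and 13 rose (23.6%), close to the 24.6% of all tested genes, with a median of -0.20. The difference between these shares and those of the 48 was not tested. Median centring gave 16 falls and 28 rises, where 18.2% of all tested genes fell and 65.5% rose. Centring on the hybridization controls gave 28 and 11, where 38.1% of all tested genes fell and 14.6% rose. The balance of this list rests on the scaling, as does that of all tested genes.

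Enzymes that clear damaged nucleotides fell in 5 of 6 tested, where 31.8% of all tested genes fell. Among them were Nudt1, which removes oxidized purine nucleotides (difference -3.50), and Nudt5, a hydrolase of ADP sugars (difference -3.92). In the methionine salvage and polyamine list 8 of 12 fell, beside the same 31.8%. These included Enoph1, a methionine salvage enzyme (difference -4.79), Odc1, the ornithine decarboxylase (8.42 ± 0.66 to 5.76 ± 0.13), and Apip, a dehydratase of methionine salvage (difference -1.69). Bhmt and Gnmt rose in that list, by 0.42 and 0.48, calls lost with arrays centred on the hybridization controls. Uck2, which salvages uridine and cytidine, fell by 4.15, from 7.44 ± 0.77 to 3.30 ± 0.12.

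Purine breakdown and interconversion genes rose in 5 of 10 tested and fell in 3, where 24.6% of all tested genes rose and 31.8% fell. Median centring gave 7 rises and 2 falls, where 65.5% of all tested genes rose and 18.2% fell. Control centring gave 5 rises and 4 falls, where 14.6% rose and 38.1% fell. Nt5e, the surface ectonucleotidase CD73 that makes adenosine from AMP, read 6.95, 4.73 and 6.79 in Gr1lo and 10.54, 10.95 and 10.82 in Gr1hi, a rise of 4.61 (SE 0.50, limma adjusted p = 3.63e-05). Gr1lo replicate 2 was again apart, here low. Gda, guanine deaminase, rose from 12.83 ± 0.09 to 13.71 ± 0.04, Xdh, xanthine dehydrogenase, by 1.36, Ampd3, an AMP deaminase, by 0.99 and Nt5c2, a cytosolic nucleotidase, by 1.29. Each of these 5 also rose under both other scalings. Adal, Nt5c and Nt5m fell, with differences of -1.37, -2.48 and -1.03. Upp1, uridine phosphorylase, showed the largest rise of the list, from 3.88, 4.30 and 5.02 in Gr1lo to 8.74, 10.17 and 10.06 in Gr1hi, a difference of 5.26 (SE 0.40, adjusted p = 4.42e-06). Of 8 tested nucleotide kinases 4 fell, among them Nme6 (difference -2.43), and 1 rose. The one that rose was Cmpk2, a nucleotide kinase of mitochondria that responds to interferon, by 1.10. Of 8 tested genes of folate supply and cycling 2 fell, Slc25a32 and Slc19a1 (differences -0.95 and -0.85), and 2 rose. The latter included Ggh, which trims folate polyglutamates and rose from 9.23 ± 0.12 to 10.39 ± 0.13.

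**Figure D5:**
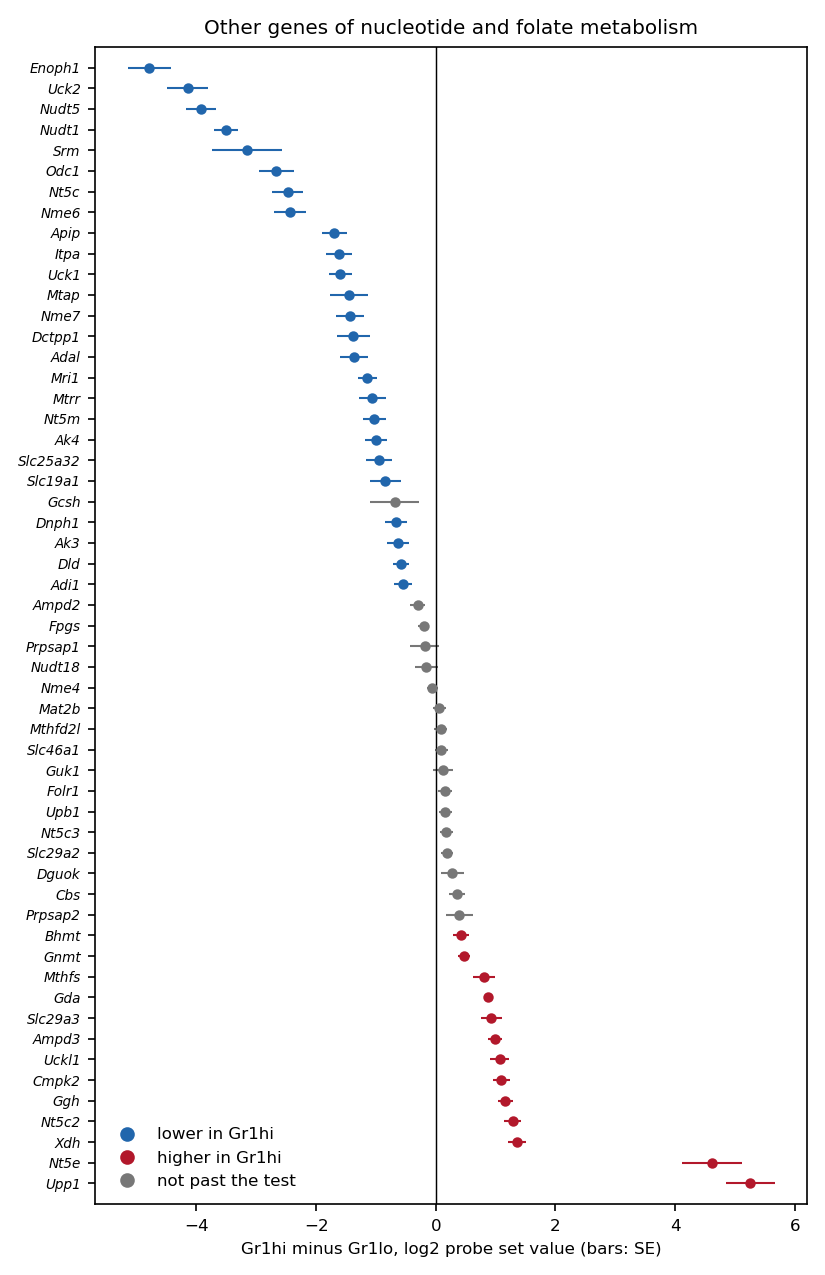
Difference between Gr1hi and Gr1lo (log2, horizontal axis) of the 55 tested genes of nucleotide and folate metabolism outside the set; bars are SE and colours the call. Values run from Enoph1 at -4.79 to Upp1 at 5.26, with 25 genes lower and 13 higher.

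Markers of dividing cells and of other cell types were read beside these results. Over all tested genes 31.8% fell and 24.6% rose. All 20 tested genes of the cell cycle list fell, with a median of -3.94, and their summed signal on the linear scale ran from 60470.5 to 69151.6 in Gr1lo and from 5465.42 to 6648.84 in Gr1hi. Top2a stood at 12.70 ± 0.01 and 9.92 ± 0.12. Their part in the fall of the enzymes was not tested. Of other lineages that divide in marrow, the erythroid list had 1 of 4 tested genes lower, Hemgn (4.60 to 2.64), with summed signals of 57.1 to 61.7 and 38.1 to 44.7, and Klf1 and Alas2 at the absent-transcript level. The B-lineage list had 1 lower and 3 higher of 7 tested, with 88.4 to 98.5 and 83.9 to 107.0, and Pax5 at 2.69 in Gr1lo. The progenitor list had 1 of 4 lower, Kit (8.41 to 6.47), with 324.6 to 453.4 and 112.2 to 154.8, and Cd34 and Flt3 at the absent-transcript level. In the basophil and mast cell list Kit and Ms4a2 fell, 2 of 5 tested, with 472.6 to 546.4 and 107.8 to 403.3, while Cpa3 and Mcpt8 did not pass the test. Mcpt8 read 5.06, 5.47 and 7.44 in Gr1lo and 5.13, 3.13 and 7.74 in Gr1hi. Mcpt8, Cpa3 and Fcer1a were highest in replicate 3 of both groups, and Kit, Ms4a2 and Gata2 were not. The monocyte list had 1 lower, F13a1 (9.80 to 8.82), and 1 higher, Csf1r (7.77 to 11.78), of 8 tested, with 1037 to 2199 and 3790 to 4762. Its genes other than Csf1r were highest in replicate 3 of both groups, and Csf1r in replicate 3 of Gr1lo alone. The macrophage list had 1 lower, Vcam1 (10.31 to 5.05), and 2 higher of 4 tested, among them Adgre1 (4.58 to 7.57), with 1130 to 1623 and 212.7 to 303.9, and C1qc and Mertk at the absent-transcript level. In the T and NK cell list Cd3d rose (4.32 to 8.49), as did Eomes, both tested genes, with 32.3 to 51.6 and 356.1 to 429.4, and Cd3e and Cd3g were at the absent-transcript level. Itgax rose in the dendritic list (2.48 to 5.77), 1 of 2 tested, with 24.4 to 27.6 and 60.4 to 113.8, and Flt3, Cd209a and Xcr1 at the absent-transcript level. The eosinophil list had 1 tested gene, which was not called, and the megakaryocyte list 1 higher of 3, with summed signals of at most 66.1 and 33.8. The part of these lists was not tested either.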

How the data were processed

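Total RNA of 6 sorted samples was hybridised to Affymetrix 3' expression arrays. The authors deposited 1 log2 value per probe set and array, made with GCRMA, as named in the submitters' processing notes; its version is not given in the sources used. The 45101 values of an array lay between 0.87 and 15.01, none was missing, and detection calls were not among the values used. GCRMA estimates background and equalizes arrays, so low values cannot be told from absent transcripts except by 3 control probe sets, whose highest value was 2.77.

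The annotation gave 34945 probe sets 1 symbol; the 932 with several and 9160 with none named no gene. Each gene was its probe set with the highest mean. A gene was tested where at least 3 of 6 arrays exceeded that array's 40th percentile. Groups were compared with limma 3.58.1 (R 4.3.3; lmFit, eBayes with trend), two-sided, with Benjamini-Hochberg adjustment; the fit had 4 residual and 5.10 prior degrees of freedom. The fit was tested on simulated data of 12732 genes for Gr1hi against Gr1lo. Of 50 genes changed by each size it recovered 16%, 64%, 90% and 100% at log2 changes of 0.5, 1, 2 and 4, with 7 false calls. Far fewer genes were changed there than the 56.4% called in the data, and the simulated errors were independent. These rates therefore need not hold for the fit to the data. Figures used Python 3.11.15 and matplotlib 3.10.9.

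Members and lists were chosen with earlier results of these data known. Values on every array are given for the 3 largest and smallest differences, for members of a pair of one enzyme family and for members that went against their role group; other members with such values, and the replicate 2 pattern, were chosen after their values were seen. Of related genes, up to 3 per list with the smallest p and those against their list's majority are named. Alternatives changed the filter, probe set rule, variance model, scaling, array weights, threshold, replicate block and arrays used; a pseudocount did not apply.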

Additional observations from a re-analysis of the deposited data

How the results depend on the processing

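Of 46 enzymes, 37 kept their direction and their side of the threshold under all 19 alternatives other than single probe sets. The counts of enzymes lower and higher were 35 and 8 under median centring. Leaving out 1 array at a time gave 37 to 39 lower and 3 to 4 higher. Over all genes, lower calls were 2316 with that centring and 2419 in a test against a 1.5-fold change; higher calls were 8344 and 1355, and 1861 with control centring, which uses the hybridization spikes. Leaving out 1 array gave 3794 to 3925 lower and 2748 to 2966 higher. Same-numbered arrays correlated in their deviations from the group means at 0.166, 0.00435 and 0.145, and arrays of unlike number at -0.188 to 0.0436. Replicates 1 and 3 thus correlated best with their own number, and Xist was high in replicate 3 of both groups alone. The labels name no pairs, so the main fit took none. A shared source of same-numbered arrays was not tested. The replicate number as a block gave 38 enzymes lower and 4 higher, and 4020 and 3036 of all genes; Gr1lo replicate 2 did not correlate best with its own number. Tyms passed the test with that block (difference -0.56, adjusted p = 0.0261) and Cmpk1 did not (0.0694).

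Median centring of the arrays over the tested genes made 2 genes of the PRPP and IMP branches and 1 pyrimidine gene rise; Adss (0.58), Adssl1 (0.49), Cmpk1 (0.45) and Tyms (0.11) turned sign. Ctps2 turned to -0.11 with centring on the hybridization controls, and Adk to 0.19 with another of its probe sets. Leaving out 1 array moved Adss between -0.22 and 0.0091, the latter without Gr1hi replicate 1. In the thymidylate and kinase group 1 gene rose instead of 2 with centring on the hybridization controls, without both replicate 3 arrays, at a threshold of 0.01 and against a 1.5-fold change, and 1 to 2 when an array was left out. Other pathway genes gave 16 falls and 28 rises with median centring, where 18.2% of all tested genes fell and 65.5% rose. Against a 1.5-fold change they gave 16 falls, where 19% of all tested genes fell. Of the pairs, Nme1/Nme2 (0.53) and Shmt1/Shmt2 (-0.63) turned sign with averaged probe sets, and Adss/Adssl1 without both replicate 3 arrays (-0.016) or without 1 array (-0.072 to 0.26). The cause was not tested. Signal near the absent-transcript level limits the size of the falls of Dctd and Impdh1. Dhodh read 2.56 in Gr1hi replicate 2, below the highest absent-transcript control at 2.77. Mthfd1l, Tk1, Mthfd1, Shmt2 and Cad had Gr1hi means of 3.24 to 3.30, not far above that control. The size of these falls may thus be limited too.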
